A study of Mus musculus with 15 samples.

Results

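RNA polymerase III (Pol III) is the nuclear enzyme that makes tRNAs, 5S rRNA, U6 snRNA and other short RNAs. The genes described here are 8 that encode subunits of Pol III (Polr3a, Polr3b, Polr3c, Polr3d, Polr3e, Polr3f, Polr3g and Polr3k) and Maf1, which encodes the protein that binds Pol III and represses it when nutrients or growth signals fail. They were chosen by name, all 9 were matched in the annotation (GENCODE vM1, genome build mm9), and they are 9 of 22219 protein-coding gene symbols. The genes of Pol III subunits are themselves transcribed by RNA polymerase II (RNAPII), whose binding was measured here. Myc, a transcription factor that drives growth, is known to stimulate Pol III directly through the initiation factor TFIIIB as well as to bind RNAPII promoters. Pol III itself was not profiled in the lists used here.

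Chromatin immunoprecipitation with sequencing (ChIP-seq) had been done in 3T9 fibroblasts, a line from mouse embryos of day 13.5. The cells carry c-myc flox/flox alleles and were infected in culture with MycER, a retrovirally encoded fusion of Myc to a hormone-binding domain that 4-hydroxytamoxifen (OHT) activates. The N262 antibody was used for Myc and N20 for RNAPII, in cells without OHT, called 0 min, and after 10, 20 and 30 min, 2 h and 4 h with 400 nM OHT. Miz1, the Myc partner encoded by Zbtb17, was profiled (antibody 10E2) in these fibroblasts and in B cells taken with B220 beads from the spleens of WT C57BL/6 mice aged 6 to 8 weeks. The fibroblasts hold the floxed c-myc genes and MycER at all times, so a Myc peak cannot be assigned to the endogenous or to the introduced protein.

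Each group was 1 library, so differences between times were not checked by replication and are given without p-values. Depth ran from 28132063 to 33431447 tags for Myc and from 15276996 to 36396286 tags for RNAPII. RNAPII depth was close at 0 min (15276996 tags), 30 min (16274905) and 4 h (16268203), and again for 10 min (19999678) and 2 h (19859793), while 20 min was the deepest. Each RNAPII library had been called by 2 programs, and the lists named narrow had the longer peaks, with a median of 2616 bp at 0 min against 823.5 bp in the list named broad. Of the markers of the labelled cell type, 8 of 10 fibroblast genes had a narrow RNAPII promoter peak at 0 min, against 1 of 8 B cell, 1 of 8 T cell and myeloid, 1 of 5 neuronal and 0 of 5 hepatocyte markers. The B cells were profiled for Miz1 alone, so their identity could not be checked in this way.

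Myc binds DNA with its partner Max at the E-box CACGTG and, less tightly, at variants such as CACGCG. The stretches show the motif nearest to the Myc summits of the genes that had one within 100 bp in at least 3 of the 6 lists, read 5′ to 3′ on the strand of the gene from mm9, with the motif in capitals. CGCGTG is CACGCG read on the opposite strand. The stretches of Polr3a (chr14:25306250-25306295, minus strand), Polr3d (chr14:70843037-70843082, minus strand) and Polr3e (chr7:128061277-128061322, plus strand) hold CACGTG. Those of Polr3b (chr10:84085119-84085164, plus strand), Polr3g (chr13:81849953-81849998, minus strand) and Maf1 (chr15:76181014-76181059, plus strand) hold CACGCG. The stretch of Polr3c (chr3:96531531-96531619, minus strand) holds both. It is shown for its CACGCG, as its CACGTG lay within 100 bp of the Myc summit in 1 list alone, at 20 min. Polr3k had CACGCG within 100 bp at 0 min alone and is not shown.
Polr3a: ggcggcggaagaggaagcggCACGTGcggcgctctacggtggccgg
Polr3d: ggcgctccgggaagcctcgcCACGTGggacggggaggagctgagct
Polr3e: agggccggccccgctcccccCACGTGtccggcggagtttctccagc
Polr3b: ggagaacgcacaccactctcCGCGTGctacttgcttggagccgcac
Polr3g: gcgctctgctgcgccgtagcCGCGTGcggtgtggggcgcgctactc
Polr3c: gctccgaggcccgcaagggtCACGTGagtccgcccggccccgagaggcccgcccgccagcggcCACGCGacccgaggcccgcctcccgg
Maf1: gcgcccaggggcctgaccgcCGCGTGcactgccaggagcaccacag

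All 9 genes carried Myc at the promoter at all 6 times, 0 min included. A promoter peak is a peak that overlaps, by at least 1 bp, the 1000 bp either side of a transcription start site (TSS). Over all genes 43.3% had Myc at all 6 times. All 9 also had RNAPII there at all 6 times in the narrow lists, against 43.5% of genes, and in the broad lists, against 41.3%. Among genes with RNAPII at all 6 times 91.1% had Myc at all 6 times, so the count of 9 is near that share for genes with RNAPII. The 9 genes differed from each other in the rank of their Myc peak, and also in RNAPII rank and in RNAPII along the gene, as given below.

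Rank was taken from the fold enrichment of ChIP over control that the authors' peak caller gave each peak, as a percentile among genes with a Myc promoter peak in the same list, where 100 is the highest. In each list 8 of 9 genes lay above the median, except at 2 h, when 7 did. Polr3b, Polr3d, Polr3e and Polr3g were in the top 25% at all 6 times, which is 4 of 9, against 18.8% of genes with Myc at all 6 times. Polr3c, Polr3f and Polr3k, by contrast, were below the top 25% in all 6 lists, and so was Maf1.

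**Figure D1:**
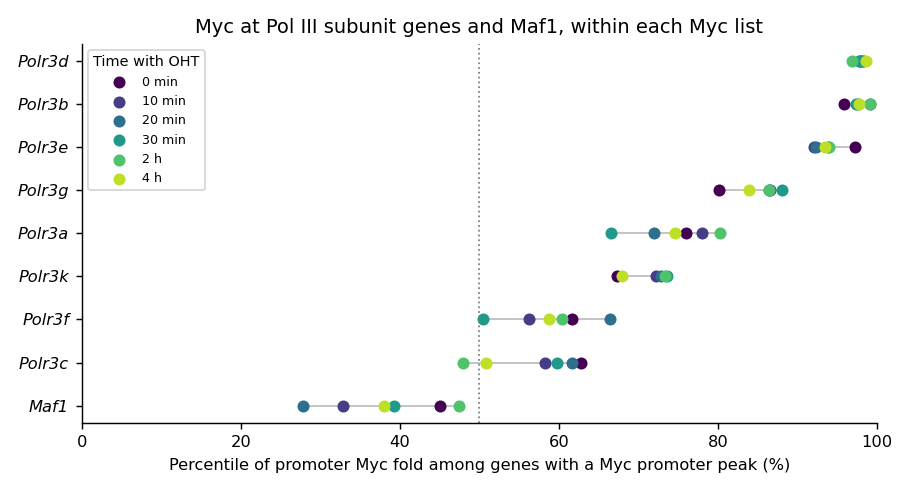
Percentile of the promoter Myc fold (x axis, %) of each of the 9 genes (y axis, ordered by their median) in the 6 Myc lists, with a point for each time and a grey line over the range. Polr3d and Polr3b stay above 95, while Maf1 runs from 27.8 to 47.4 and is the lowest of the 9 at every time.

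The catalytic core of Pol III is formed by Polr3a, the largest subunit, and Polr3b, the second largest, which share the active site, while Polr3k is a small subunit that takes part in RNA cleavage and termination. Polr3b (chr10:84085182-84189922) was among the highest Myc targets, with a Myc fold of 39.68 at 0 min, 86.76 at 10 min, 75.83 at 20 min, 66.12 at 30 min, 93.07 at 2 h and 72.23 at 4 h. These are percentiles 95.9 to 99.2. Polr3a (chr14:25267916-25306268) had a fold of 19.91, 32.2, 31.4, 23.62, 42.37 and 29.13 in the same order, which is percentile 66.6 to 80.3. In each of the 6 lists the fold and the percentile of Polr3a were below those of Polr3b. Folds were lowest at 0 min for all 9 genes, but so was the median over all genes with Myc (12.9 at 0 min, 17.6 to 23.2 later). Folds of different lists cannot show whether there was a change between times.

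RNAPII at the core genes also differed in rank. The broad RNAPII peak of Polr3b lay at percentile 87.1 to 96.8 and that of Polr3a at 17.2 to 45.0. The Myc summits lay within 70 bp of each other at Polr3a, from 30 bp upstream to 40 bp downstream of the TSS, and its E-box, 4 bp upstream of the TSS, was within 100 bp of all 6. At Polr3b the 6 summits spanned 86 bp, and the CACGCG is 41 bp upstream of the TSS, in an exon of the noncoding antisense gene Gm17249. RNAPII at this promoter cannot be assigned to Polr3b or to Gm17249. Polr3k (chr2:181599042-181605535) had Myc at percentile 67.3 to 73.6 and broad RNAPII at 65.6 to 84.6.

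Polr3c, Polr3f and Polr3g form a trimer inside Pol III that works in initiation. Polr3g, which has a paralog in Polr3gl, was the highest of them, with a Myc fold of 22.11, 41.18, 45.8, 41.43, 50.29 and 37.39 at the 6 times. This put Polr3g (chr13:81812842-81850012) at percentile 80.2 at 0 min and 83.9 to 88.1 later. Polr3gl, which encodes the alternative subunit for the same place, was at percentile 63.7 at 0 min and 28.0 at 4 h.

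Polr3c (chr3:96515413-96531551) had folds of 15.67 to 25.37 and percentiles of 48.0 to 62.8. Its TSS lies 17 bp from that of Rnf115 on the opposite strand, so Myc and RNAPII there belong to a shared promoter. Polr3f (chr2:144353454-144367731) had percentiles of 50.5 to 66.5, and 304 bp separate it from 6330439K17Rik. Neither CACGTG nor CACGCG lay within 100 bp of a Polr3f Myc summit at any time.

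Polr3d and Polr3e form a pair of subunits related to the RNAPII factor TFIIF, and their genes ranked high for Myc, Polr3d with the highest median percentile of the 9 (97.9) and Polr3e with 93.7. Polr3d (chr14:70838555-70843278) had Myc folds of 49.02, 73.18, 77.66, 69.3, 77.08 and 79.69, at percentiles 96.9 to 98.6. Polr3e (chr7:128061258-128090946) had folds of 44.2, 50.58, 56.44, 52.02, 66.19 and 53.24, at percentiles 92.1 to 97.3. Both carry CACGTG near the summit, in an intron 219 bp downstream of the TSS at Polr3d and in the 5′ UTR, 41 bp downstream, at Polr3e.

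Maf1 (chr15:76181724-76184810) had the lowest Myc rank of the 9 genes in every list, with folds of 12, 13.77, 13.86, 14.71, 22.19 and 14.93. The Maf1 promoter is divergent, with the TSS of Sharpin 183 bp away, and its Myc peak of 3167 to 3653 bp spans both genes. The Myc summit lay 436 bp downstream of the Maf1 TSS at 0 min, 398 bp at 2 h and 363 bp at 4 h, inside Maf1. At 10, 20 and 30 min it lay upstream, at positions -684, -692 and -662 bp from that TSS, in coding sequence of Sharpin, where the CACGCG shown above is found. A single summit is given per peak, so the data do not tell whether binding moved or both places were bound throughout.

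CACGTG lay within 100 bp of the Myc summit at 3 of 9 genes, Polr3a, Polr3d and Polr3e, in 5 of the 6 lists, and at 20 min also at Polr3c. Over all promoter peaks the share was 19.0% at 0 min and 17.7% at 4 h. CACGCG was near the summit of Polr3b and Polr3g at all 6 times, of Polr3c at 10 min, 20 min, 2 h and 4 h, of Maf1 at 10, 20 and 30 min and of Polr3k at 0 min. That is 4 of 9 at 10 and 20 min and 3 of 9 at the other 4 times, against 21.8 to 23.0% of promoter peaks. With 9 genes these counts are descriptions, and the presence of a motif is not evidence that it was bound.

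**Figure D2:**
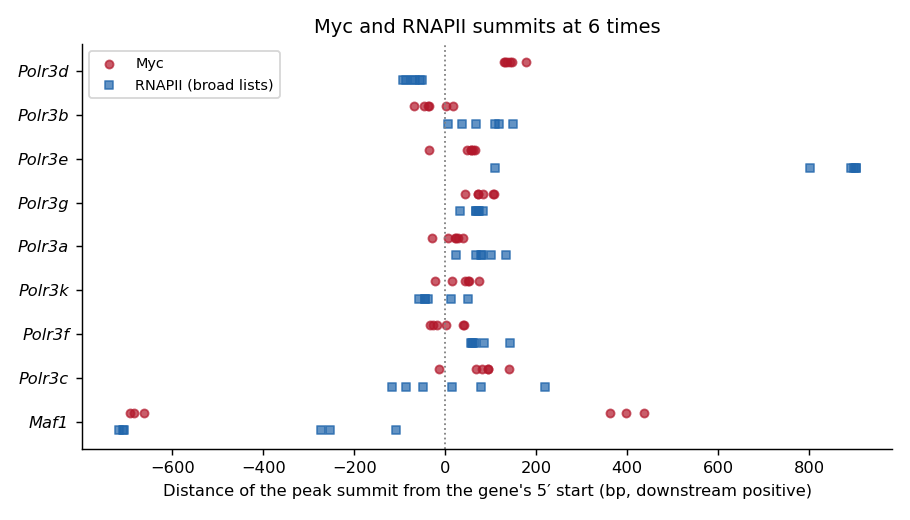
Distance of the Myc summit (red circles) and the summit of the broad RNAPII peak (blue squares) from the 5′ start of each gene (x axis, bp, downstream positive) at 6 times. The RNAPII summit of Polr3e lies 802 to 902 bp inside the gene at 5 times and at 109 bp at 30 min, while the Maf1 Myc summits fall in 2 places.

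The narrow RNAPII summit lay within 221 bp of the TSS in all 6 lists at 7 of the 9 genes, the others being Polr3e and Maf1. In the narrow lists the Polr3e summit was 921 bp inside the gene at 0 min, 885 bp at 10 min, 897 bp at 20 min, 925 bp at 2 h and 894 bp at 4 h. At 30 min it was at 134 bp. The broad lists, called on the same libraries, gave the same split, with 802 to 902 bp at 5 times and 109 bp at 30 min. At 30 min the peak still spanned both places, at -908 to 2492 bp (narrow) and -186 to 1424 bp (broad) from the TSS. A single summit is given per peak, so the data do not tell whether RNAPII moved at 30 min. Over all genes with a narrow promoter peak 3.22 to 3.73% had the summit 500 to 1500 bp inside the gene, depending on the time. The Myc summit of Polr3e stayed between 36 bp upstream and 66 bp downstream of the TSS, so the RNAPII summit was 740 to 938 bp beyond it at those 5 times in the broad lists.

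The Polr3e summits away from the TSS lie in intron 1, which runs from 167 to 5154 bp after the TSS. That intron of mouse Polr3e is known to hold a MIR, a short interspersed repeat that Pol III transcribes antisense to the gene. The annotation used here does not mark it. A search for the B box, the internal promoter element of tRNA genes and such repeats, was made after the sequence had been seen. It found a match on the minus strand, antisense to Polr3e, 1016 bp after the TSS and 95 bp from the 0 min summit. The stretch around it (chr7:128062214-128062344, plus strand of mm9) is given with the match in capitals, in its plus-strand letters.
Polr3e intron: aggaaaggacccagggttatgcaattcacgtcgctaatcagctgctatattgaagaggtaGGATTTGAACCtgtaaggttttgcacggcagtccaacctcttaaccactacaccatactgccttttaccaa
Within 200 bp of the summit such a match was found at 67 of 18877 narrow RNAPII peaks at 0 min (0.355%), and among the 9 genes at Polr3e alone. A match is not a measured site, and the part of the repeat in the RNAPII summit was not tested.

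At Polr3d the RNAPII summit lay on the other side of the TSS from Myc. It was 12 to 90 bp upstream in the narrow lists and 52 to 92 bp upstream in the broad lists, while Myc lay 129 to 178 bp downstream. That stretch holds the gene of the microRNA miR-320, Mir320 (chr14:70843317-70843398, plus strand), divergent from Polr3d. The RNAPII summit lay inside Mir320 in both calls on each library except that of 2 h, where it did so in the broad list alone. RNAPII there cannot be assigned to Polr3d or to Mir320.

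Along the genes, RNAPII was measured as cover, the percent of the gene body, from 1000 bp after the 5′ start to the gene end, that RNAPII peaks overlie. In the narrow lists the mean over the 9 genes was 20.7% at 0 min, 24.6% at 10 min, 41.1% at 20 min, 27.7% at 30 min, 35.0% at 2 h and 21.5% at 4 h. Over all 9763 genes of at least 3000 bp with RNAPII at 0 min it was 21.6, 27.9, 33.0, 24.5, 25.7 and 22.7%. Cover was more than 20 points above that at 0 min in 0 of 9 genes at 10 min (12.9% of all genes), 3 of 9 at 20 min (22.1%), 1 of 9 at 30 min (9.22%), 2 of 9 at 2 h (10.5%) and 0 of 9 at 4 h (7.32%). It was more than 20 points lower at 4 h in 1 of 9, Polr3d, against 4.86% of genes. Between the pair of like depth, 10 min and 2 h, cover was more than 20 points higher at 2 h in 2 of 9, Polr3e and Maf1, against 3.49% of genes. With peaks at or above the median fold of their list alone, Polr3e no longer passed, at 4.85% at 10 min and 7.57% at 2 h. In the broad lists 1 of 9, Polr3d, was over 20 points higher at 20 min, against 10.6% of genes. Mean broad cover of the 9 genes was 0.117, 1.94, 9.76, 1.6, 1.93 and 0.647% at the 6 times. Over all 9763 genes mean broad cover was higher at each time, at 5.37, 7.47, 11.6, 6.44, 7.01 and 6.0%.

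**Figure D3:**
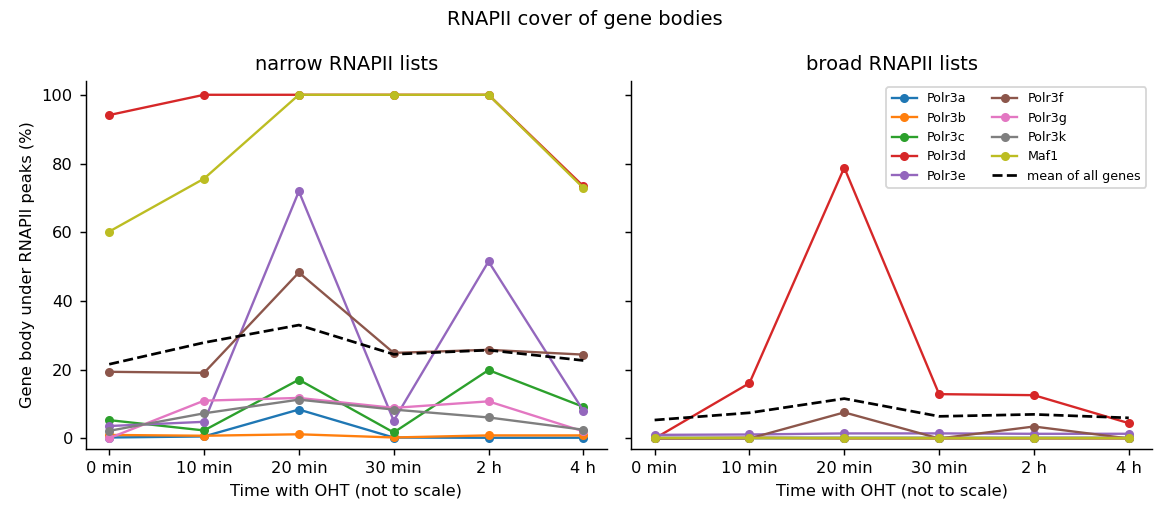
Percent of each gene beyond 1000 bp that lies under RNAPII peaks (y axis) at 6 times (x axis, not to scale) in the narrow (left) and broad (right) lists, with the mean of 9763 genes as a dashed line. Polr3d and Maf1 stay above 60% in the narrow lists, Polr3e reaches 71.9% at 20 min and 51.5% at 2 h, and in the broad lists only Polr3d exceeds 10%.

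Most of the members' mean came from a few of them. Polr3e had narrow cover of 3.62% at 0 min, 4.85% at 10 min, 71.9% at 20 min, 5.2% at 30 min, 51.5% at 2 h and 8.09% at 4 h. Over the gene and just past its end lay 6 peaks at 20 min and 7 at 2 h, against 2 at 0, 10 and 30 min and 3 at 4 h. The added peaks at 20 min and 2 h that lay wholly within the gene had folds of 4.28 to 6.2, far below the 35.24 and 35.11 of the promoter peaks. In the broad lists Polr3e cover stayed at 1.05 to 1.48%. With peaks at or above the median fold of their list alone, Polr3e cover was 22.9% at 20 min and 7.57% at 2 h. The 20 min library was the deepest, with 36396286 tags, against 19859793 at 2 h and 19999678 at 10 min, and the part of depth was not tested.

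Polr3d cover was 94.1% at 0 min, 100% at 10, 20 and 30 min and 2 h, and 73.4% at 4 h. At 0 min and 4 h the gene lay under 2 narrow peaks with gaps of 220 and 989 bp. At the other 4 times it lay under 1 peak of 13670 to 14026 bp that ran 7.65 to 7.91 kb past the end of the gene, against 5.94 kb at 0 min and 6.01 kb at 4 h. In the broad lists Polr3d cover was 0% at 0 min, 16.1% at 10 min, 78.8% at 20 min, 12.9% at 30 min, 12.6% at 2 h and 4.46% at 4 h. The highest value again fell in the deepest library.

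**Figure D4:**
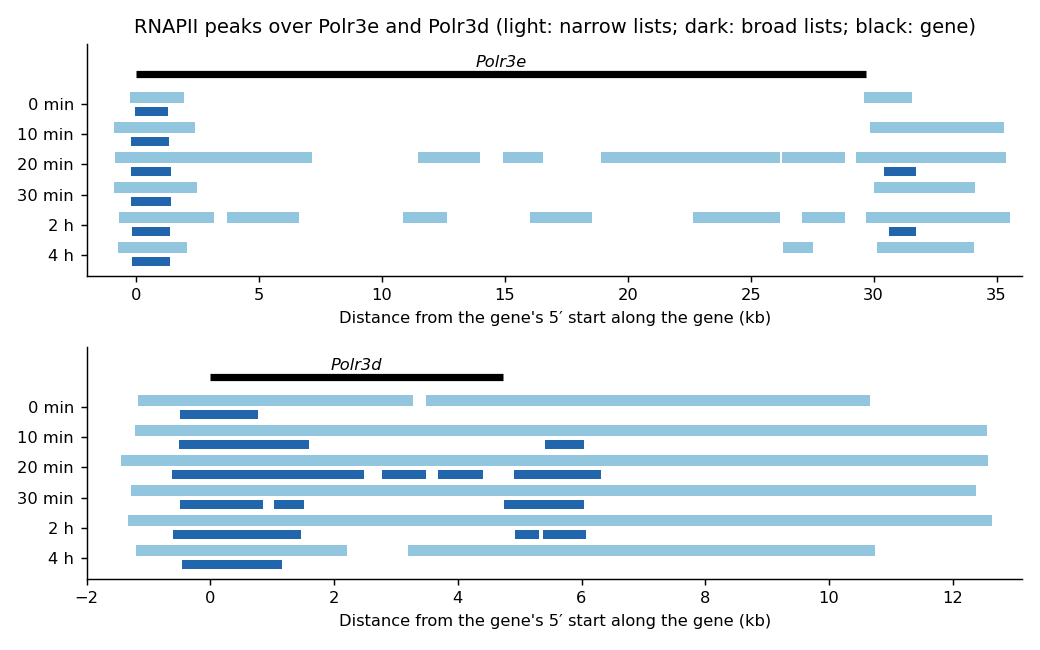
RNAPII peaks over Polr3e (top) and Polr3d (bottom) at 6 times (rows), drawn to scale along each gene (x axis, kb from the 5′ start), with narrow peaks light, broad peaks dark and the gene black. Polr3e has peaks across its body at 20 min and 2 h, and Polr3d is split between 2 narrow peaks at 0 min and 4 h.

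Polr3g was the gene with the least RNAPII cover at 0 min, 0.102%, and had 11% at 10 min, 11.8% at 20 min, 8.9% at 30 min, 10.8% at 2 h and 2.07% at 4 h. At 0 min the only narrow peak over Polr3g was that at the promoter. At each of the 5 later times a further peak of 4.77 to 6.04-fold had its summit past the end of the 37171 bp gene, 37543 to 40079 bp from the TSS. That peak overlapped the end of the gene at 10, 20 and 30 min and 2 h but not at 4 h, when the cover came from the promoter peak alone. It began 37061 bp from the TSS at 30 min and 36751 bp at 2 h, so little of it lay in the gene then. At 30 min another peak, of 5.11-fold, lay 2642 to 4569 bp after the TSS, and at 2 h the promoter peak reached 4469 bp. The broad RNAPII peak at the Polr3g promoter was at percentile 28.5 at 0 min and at 84.8, 89.6, 82.1, 66.9 and 90.6 at 10, 20 and 30 min, 2 h and 4 h. The narrow peak was at percentile 60.4 in the 0 min list and at 79.3 to 86.9 in the others. These are ranks within lists of different lengths, each from 1 library, and cannot show whether there was a change between times. The promoter is shared with Mblac2, whose TSS is 404 bp away.

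Of the remaining genes, Polr3a and Polr3b had the lowest cover. Polr3a cover was 0.209 to 0.592% at 5 times and 8.42% at 20 min, and Polr3b cover was 0.291 to 1.22%. Polr3c had 1.75 to 19.9% and Polr3k 2.22 to 11.3%. Polr3f had 19.1 to 25.8% at 5 times and 48.3% at 20 min, much of it in a peak at its 3′ end that ran into Rbbp9 on the opposite strand. The median over all 9763 genes was 4.82 to 12.5%, so Polr3f lay above it in every narrow list. In the broad lists Polr3a, Polr3c, Polr3g, Polr3k and Maf1 had 0% at all 6 times.

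Maf1 had narrow cover of 60.2% at 0 min, 75.6% at 10 min, 100% at 20 min, 30 min and 2 h, and 72.9% at 4 h. These values come from 1 narrow peak of 11225 to 17407 bp that also spans Cyc1 and Sharpin. Its summit lay 7.7 kb upstream of Maf1 in all 6 lists, at Cyc1, so its fold is not a value of Maf1. In the broad lists the peak over the Maf1 promoter ended 531 to 873 bp after the TSS and lay at percentile 1.65 at 0 min, 17.3 at 10 min, 23.8 at 20 min, 5.3 at 30 min, 25.8 at 2 h and 11.1 at 4 h. Maf1 had the lowest broad RNAPII rank of the 9 genes at 5 times, and at 2 h Polr3a was lower, at 24.3. The summit of the broad peak over the Maf1 promoter lay in Sharpin at every time but 10 min, when it was intergenic. The broad rank therefore cannot be assigned to Maf1 or to Sharpin.

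Miz1 was at 0 of 9 promoters in fibroblasts, where 8.25% of genes had it, and at 1 of 9 in B cells, where 5.48% did. The gene was Polr3b. Its B cell peak (chr10:84084980-84085223) had its summit 119 bp upstream of the TSS and a fold of 6.22, at percentile 17.0 of genes with Miz1. In fibroblasts the nearest Miz1 summits were 17.5 kb (Maf1) to 583 kb (Polr3g) from the TSSs. The fibroblast library was the shallower, with 10164509 tags against 24237295, and its list has the laxer p cutoff, so the lists do not compare the cell types.

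Other genes of the Pol III machinery were taken as a list of 27. Myc was at 26 of them at all 6 times, the exception being Snapc5 of SNAPc, the factor for snRNA promoters, which had Myc at 20 min, 2 h and 4 h. RNAPII was at all 27 at all 6 times in the broad lists. Over all genes 43.3% had Myc and 41.3% had broad RNAPII at all 6 times. Among genes with narrow RNAPII at all 6 times 91.1% had Myc at all 6 times. The count of 26 is near that share. By Myc fold at 4 h the highest were Polr2l (116.17) and Polr1d (64.19), both subunits that polymerases share, and Gtf3c6 (84.5), a subunit of TFIIIC. The lowest were Snapc5 (5.17), Snapc1 (8.5) and Brf1 (9.95), the last a subunit of TFIIIB, the factor that recruits Pol III. At 4 h the 4 TFIIIB genes had a median percentile of 34.2, the 5 SNAPc genes 24.0, the 6 TFIIIC genes 68.4 and the 7 shared subunits 90.4, against 74.6 for the 9 genes described here.

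**Figure D5:**
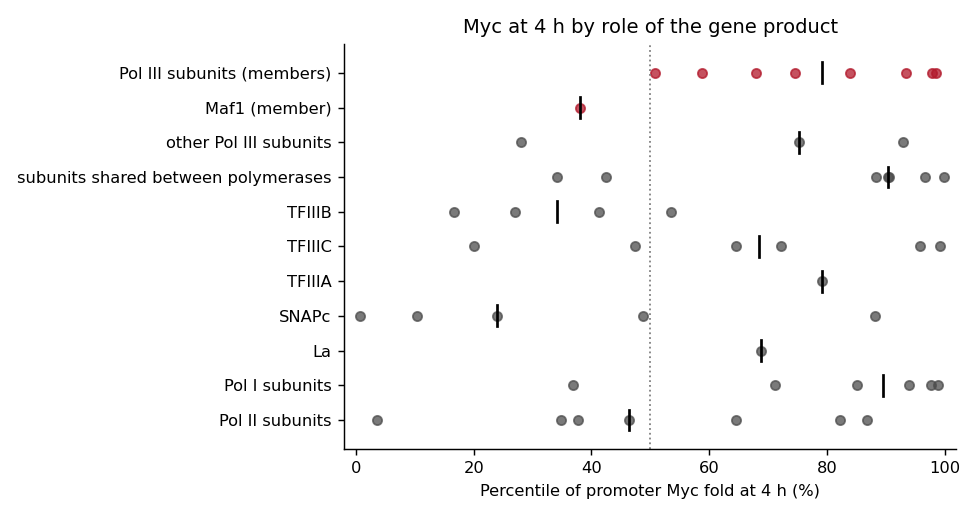
Percentile of the promoter Myc fold at 4 h (x axis, %) of the Pol III subunit genes and Maf1 (red) and of other genes of the Pol III machinery and of Pol I and Pol II (grey), by role (y axis), with a black line at each median. All 8 Pol III subunit genes in red lie above 50, Polr3c the lowest of them at 50.8. So do 5 of 7 shared subunit genes, 4 of 6 TFIIIC genes and 5 of 6 Pol I genes. Of the Pol II, TFIIIB and SNAPc genes 3 of 7, 1 of 4 and 1 of 5 do. Polr3gl, a Pol III subunit gene in grey, lies at 28.0.

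Of the same 27 genes, 26 were of at least 3000 bp. In the narrow lists, cover at 30 min was over 20 points above 0 min at 5 of the 26, against 9.22% of all genes. These were Polr2f (0.944 to 99.3%), Snapc4 (6.7 to 98.9%), Gtf3c4 (8.5 to 84.0%), Polr1d (26.2 to 72.7%) and Polr2e (65.0 to 100%). Narrow cover was over 20 points lower at Gtf3a, which encodes TFIIIA (94.2 to 43.3%). In the broad lists 0 of the 26 differed by over 20 points, and Polr2f and Polr2e had 0% at both times. Of the 6 Pol I subunit genes, 3 rose by over 20 points in the narrow lists, Polr1a (7.05 to 33.2%), Polr1b (0.329 to 85.2%) and Polr1e (15.9 to 40.9%). In the broad lists 1 did, Cd3eap (18.1 to 89.9%). The mean narrow cover of the 6 was 21.8% at 0 min and 45.6% at 30 min, against 20.7 and 27.7% for the 9 genes described here. None of the Pol II subunit genes measured changed by over 20 points.

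By Myc fold at 4 h the Pol I genes Cd3eap (80.35), Polr1b (71.27) and Polr1a (54.19) were the highest of the 13 Pol I and Pol II subunit genes, and Polr2c (6.59), Polr2a (14.19) and Znrd1 (14.64) the lowest. Polr2c had Myc at the 5 later times and not at 0 min. The 5 genes whose cover over the 12 lists was most like the mean of the 9 genes were Nprl3, Rad9b, Gtf2f2, Wiz and Wnk4, with root mean square differences of 3.04 to 3.8 points among 9754 genes. No single member has that mean profile.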

How the data were processed

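Peak lists of 14 ChIP-seq libraries, 20 lists in all, were used, and the input served only as the control of the deposited calls. The submitters' processing notes name mm9 as the build and BWA 0.6.2-r126 among the tools. Each list is a call on 1 library, made with MACS 1.4.2 (Myc, narrow RNAPII) or MACS 2.0.9 (broad RNAPII, Miz1), per the file headers. The p-value cutoff was 1e-08 for Myc and RNAPII, 1e-02 for Miz1 in fibroblasts and 1e-05 in B cells, per the file headers. As deposited, MACS 1.4.2 lists give tags per peak as a raw count, a score of −10 times log10 p, a fold over control and a false discovery rate in percent. As deposited, MACS 2.0.9 lists give the pileup signal at the summit, −log10 p, −log10 q and the fold ratio. All of these are the authors' values and were used within a list only.

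Promoters were 1000 bp either side of TSSs of protein-coding transcripts (GENCODE vM1), with an overlap of at least 1 bp. Ranks used the promoter peak of highest fold. Cover was computed for genes of at least 3000 bp, beyond 1000 bp. Motifs were counted on both strands in 200 bp around summits, and the B box in 400 bp. Sequences were read by coordinate from NCBIM37 (mm9). There were 2 peaks that ended past a chromosome end, and 4 chromosome names, of the Miz1 lists, were not in the reference. Interval code was tested on simulated data. Python 3.11.15, pandas 2.3.3, numpy 2.4.6, pysam 0.24.0 and matplotlib 3.10.9 were used.

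The members and lists were chosen with earlier results of these data known. From the machinery, Pol I and Pol II lists the rule named genes without Myc at any time (there were 0), genes whose call differed between 0 min and 4 h, the 3 highest and 3 lowest by Myc fold at 4 h, and genes whose narrow cover differed by over 20 points between 0 and 30 min. The values of 1 gene that the rule names are not reported here. With 1 library per group there was no test, and depth limits which weak peaks are in a list.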

Additional observations from a re-analysis of the deposited data

How the results depend on the processing

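Of 173 alternative values, 157 stayed close to the value reported, 15 moved and 1 reversed. No paired analysis was possible because each group is 1 library and no result comes from a test. Counts of genes with Myc or RNAPII promoter peaks stayed within 1.5 times under the 7 alternatives, though not all stayed at 9. The narrow RNAPII count was 8 of 9 at all 6 times when the summit had to lie in the window, which Maf1 did not meet. With peaks at or above the median fold, the broad RNAPII count was 8 of 9 at 0 min, 30 min and 4 h. The B cell Miz1 count of 1 became 0 with peaks at or above the median fold. The mean cover difference of 30 min against 0 min, 7.05 points, was 10.8 with bodies from 2000 bp, 1.48 in the broad lists and 2.53 without Polr3d and Maf1, an alternative chosen after seeing the data. That of 4 h, 0.839 points, was 0.531 in the broad lists, 2.21 without Polr3d and Maf1, and -1.07 with peaks at or above the median fold. Genes over 20 points at 30 min, 1 as reported (Maf1), were 0 in the broad lists, 0 without Polr3d and Maf1, and 2 with peaks at or above the median fold. CACGTG was near 5 summits in 400 bp at 0 min, 10 min, 30 min, 2 h and 4 h against 3 in 200 bp, and near 2 against 4 at 20 min in 100 bp. Over all promoter peaks the share was 21.7 to 22.9% in 400 bp and 13.0 to 13.8% in 100 bp. The changes in the CACGTG counts follow from the window for the motif, and for the others the cause was not tested. The number of tags limits which weak peaks along gene bodies pass.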
